A study of Caenorhabditis elegans with 12 samples.

Results

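Pristine silver nanoparticles, silver particles given without the ageing that sulfidized the other particles of the study, were set against control solution in whole Caenorhabditis elegans. All 3 pristine-particle arrays and all 3 control arrays were used, 6 of the 12 arrays of the series, and every probe set that was not an array control was kept, 22548 of 22625. These probe sets stood for 17118 single genes. Both groups were wild-type N2 (Bristol) nematodes that hatched from bleach-synchronised eggs and entered their solution as first-stage larvae 12 h old, where they stayed for 48 h. The pristine-particle animals received the concentration with a 30% effect on reproduction, and the control animals received the control treatment. The particle group was therefore set by its effect and not by a stated dose, and the particles' size, coating and concentration are not given in the sources used here. The aged-particle and silver nitrate groups (3 arrays each, same strain, age and time, each at its own 30% effect concentration) entered the fit for the spread between arrays and 2 direct comparisons. RNA came from populations of 2000 to 3000 whole animals, so each signal is a sum over all tissues.

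Silver particles release silver ions, which bind thiol groups of proteins, and animals meet both through the gut lumen and through the cuticle. The cuticle is a collagen-rich coat that the epidermis lays down anew at every larval molt, in waves of gene expression in which hedgehog-related genes take part. The gut answers metals and microbes with metallothioneins, conjugating enzymes, lectins and lysozymes. The germline is the main proliferating tissue of the late larva and young adult, and its output is what the reproduction test counts.

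Signals were read as arbitrary units, scaled so that all arrays shared a median of 129.3, and values below a floor of 16 were set to 16. On single arrays 13.7% to 15.8% of probe sets fell below it. The correlation across probe sets was 0.972 to 0.983 between a pristine and a control array and 0.974 to 0.981 within groups. Along the first principal component of the 6 arrays, pristine replicates lay at −12.81, −7.92 and −14.82, against 0.37, 22.71 and 12.48 for control replicates 1, 2 and 3. Control replicate 1 was thus the control array nearest the pristine ones. The 3-prime minus 5-prime log2 signal of 5 worm control genes on the array, a reading of RNA integrity, was 1.23 ± 0.19 with pristine particles and 1.22 ± 0.20 in control (SD, n = 3 arrays each; two-sided exact permutation p = 1.0, where the smallest possible p is 0.1). The 5 vitellogenin genes, which code for the yolk proteins of the adult intestine, had a summed signal of 201 to 267 on pristine arrays, against 253 to 304 on control arrays. Their signal was dim, with none at the floor on all 6 arrays but only 2 over it on all 6. With pristine particles 4 of the 5 lay lower, with a median log2 difference of −0.42, which was 0.00 with a floor of 64.

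Over all probe sets, 1 passed an adjusted p under 0.05 in the limma fit, and it was lower with pristine particles (0.00443% of the probe sets). The gene it reads is lem-4, whose product carries a LEM domain and helps the nuclear envelope re-form after mitosis. This dim probe set, 1 of 3 for the gene, lay at the floor of 16 on all 3 pristine arrays, against 34.9, 33.6 and 39.8 on the control arrays, which makes it lower by at least 2.25-fold (adjusted p = 0.00122). A brighter probe set of the same gene read 203, 214 and 202 with pristine particles and 157, 246 and 148 in control, a log2 difference of 0.20 (adjusted p = 0.853). The dim one was not called with a floor of 1, with a trend and robust fit or with the 6 arrays alone, and a floor of 64 left it no value. It was as low in the other exposures, at 18.4, 16 and 16.7 with aged particles and at the floor on all silver nitrate arrays. Their adjusted p against control was 0.00121 and 0.00122 (limma). Without adjustment 1946 probe sets had a p under 0.05, 923 higher and 1023 lower, where chance gives 1127. By gene, 728 were higher (4.25%) and 821 were lower (4.8%) at that p, and the arrays of both groups did not overlap for 953 higher genes (5.57%) and 1058 lower genes (6.18%). With 3 arrays a group, full separation has a two-sided exact permutation p of 0.1. Both shares together thus lie near what chance gives, and separated arrays alone say little about a gene.

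When only the 11274 probe sets above median brightness were tested, 13 passed, 3 of them higher (0.0266%) and 10 lower (0.0887%). Named genes among the higher ones were edg-1 and H39E23.3, and the third probe set had no single gene name. Lower were the lysozyme ilys-3, the collagen col-158, the protease cpr-2, the insulin-like ins-4, and ctdh-1, C18H7.1, T28A11.16, F35F10.7, B0457.2 and B0035.13. These calls belong to that restricted test, and over all probe sets the adjusted p of the 13 ran between 0.0644 and 0.227. In the rest of the text a log2 difference is pristine minus control, an adjusted p is limma's over all 22548 probe sets, and none of the genes described passed it unless stated. Many genes were named for a small p or for arrays that did not overlap. Where the text says that their groups lay apart, this was largely set by that choice and is no independent evidence.

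Cuticle genes were among those with the lowest signal relative to control. The collagen col-114 read 23.7, 19.9 and 20.3 with pristine particles, against 96.4, 207 and 110 in control. The groups were far apart, with a 6.12-fold lower signal in the exposed animals (log2 difference −2.61 ± 0.30 SE, adjusted p = 0.0644). This value passed with the dimmest 25% of probe sets left out, with the deposited scaling, after quantile normalisation, in a trend and robust fit, and without control replicate 1 or 2. For col-158 the pristine arrays read 116, 61.3 and 47.5 and the control arrays 209, 481 and 254 (4.22-fold lower, −2.08 ± 0.37, adjusted p = 0.173). The signal of col-35 was 35.6, 17.3 and the floor of 16 in the exposed animals, against 51.2, 128 and 69.7 (at least 3.59-fold lower, adjusted p = 0.309). Again no pristine array reached a control array for either gene. The brighter col-39 differed less, at 3553, 3592 and 3537 with pristine particles and 4835, 4841 and 4081 in control (−0.36). Values for col-123 were 63.3, 84.1 and 90.2, against 113, 175 and 130 (−0.81).

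Of all 128 genes named col, which code for cuticle collagens, 86 lay lower and 42 higher, with a median log2 difference of −0.19 where that of all genes was 0.00. At an unadjusted p under 0.05, 13 were lower (10.2%, against 4.8% of all genes) and 1 was higher (0.781%, against 4.25%), and 7 genes lay at the floor on all 6 arrays. The body-shape and blister collagens (dpy, sqt, rol, bli and lon-3, furrow collagens apart) leaned the same way, with 11 of 13 lower and a median of −0.32. Their mean log2 level, less the control mean, was −0.30, −0.16 and −0.66 on pristine arrays. It was 0.04, −0.18 and 0.14 on control arrays, so the groups overlapped. Without pristine replicate 3 their median was −0.22. Among these collagens rol-8 read 350, 391 and 310 with pristine particles and 595, 711 and 703 in control (−0.94, adjusted p = 0.572). Its groups did not overlap, and its second probe set differed by −1.70. The collagen dpy-17 read 104, 98.5 and 91.8, against 132, 152 and 134 (−0.51). By contrast, the abundant dpy-13 overlapped between groups, at 10246, 18998 and 14817 with particles and 16263, 20638 and 19282 in control. The 5 furrow collagens, which pattern the ridges of the cuticle, had a median of −0.76 that rested on pristine replicate 3: dpy-7 read 67.6, 44.6 and 20.9, against 49.0, 92.4 and 110 in control, and without that array the median was −0.09. The col median was −0.11 and the body-shape median −0.18 without control replicate 3, and with a floor of 64 the col median was −0.04. In whole animals, fewer cells of a type and less RNA per cell cannot be told apart, here and for every tissue described.

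**Figure D1:**
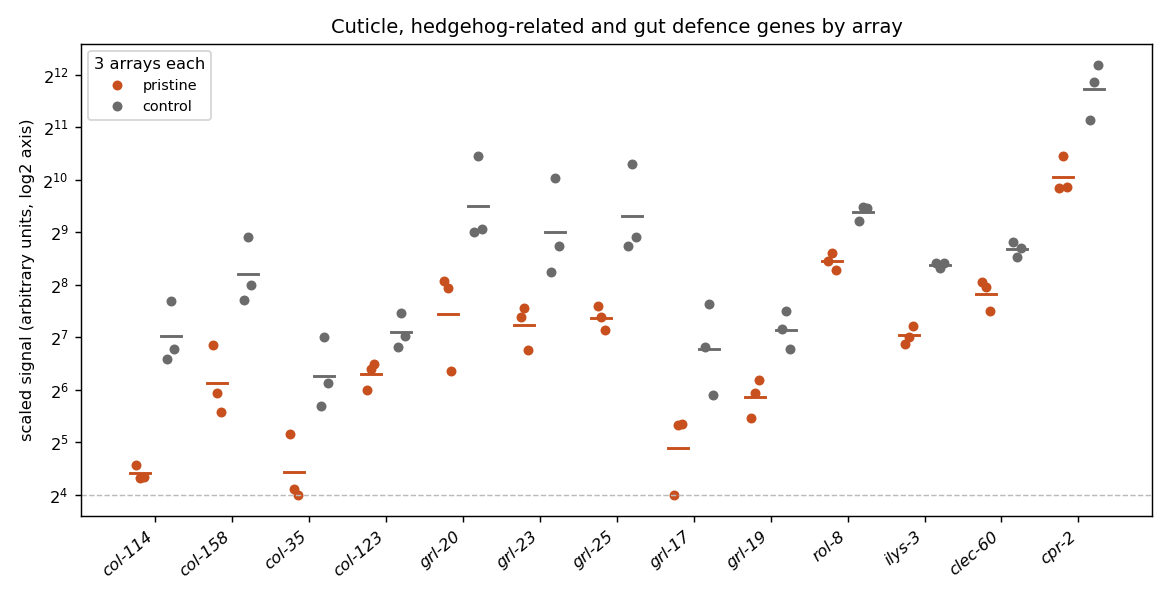
Scaled signal on a log2 axis for 13 cuticle, hedgehog-related and gut genes, with a dot for each of 3 pristine-particle arrays (orange, left) and 3 control arrays (grey, right), a short bar for the mean of the log2 values and a dashed line at the floor of 16. In all 13 genes every pristine array lies below every control array, by the widest margin in col-114 (23.7 at most, against 96.4 at least). Many of these genes were named for a small p or for arrays that did not overlap, so this separation is largely set by that choice.

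Hedgehog-related and patched-related genes, which in C. elegans serve the epidermis and its molts, included several ground-like genes (grl) with large differences. The pristine arrays of grl-20 read 267, 244 and 82.0 and the control arrays 511, 1407 and 533 (4.16-fold lower, −2.06 ± 0.53, adjusted p = 0.309). Its second probe set differed by −1.66. The signal of grl-25 was 193, 166 and 141 in exposed animals, against 428, 1260 and 480 (3.86-fold lower), and its second probe set differed by −2.31. In both genes control replicate 2 was the highest array. Much the same spread was seen in grl-23, at 168, 189 and 108 with particles and 303, 1043 and 427 in control (−1.77, adjusted p = 0.328). The gene grl-17 lay at the floor on pristine replicate 1 and read 40.1 and 40.5 on the others, against 112, 198 and 59.5 (at least 3.70-fold lower). For grl-19 the pristine arrays read 43.7, 61.4 and 73.1, against 143, 180 and 110 in control (−1.28 ± 0.30, adjusted p = 0.278). These 5 grl genes each kept the pristine arrays below all control arrays.

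Across the 80 measured hedgehog-related and patched-related genes, 56 lay lower and 24 higher (median −0.11), and 10 were lower at an unadjusted p under 0.05 (12.5%, against 4.8% of all genes) with 1 higher (1.25%, against 4.25%). The mean log2 level of the list, less the control mean, was −0.35, −0.22 and −0.22 on the pristine arrays and between −0.01 and 0.01 on the control arrays. Its median was −0.07 without pristine replicate 1, −0.18 without pristine replicate 2 or 3, and −0.01 with a floor of 64. The hedgehog-related qua-1, which worms need to complete molting, read 84.4, 115 and 122 with particles and 166, 189 and 201 in control (−0.80). Of 23 molting genes 16 lay lower (median −0.18, or −0.29 without pristine replicate 3), 3 of them at an unadjusted p under 0.05 (13%, against 4.8% of all genes). The kinase nekl-3, required to shed the old cuticle, read 453, 445 and 371 in exposed animals, against 508, 646 and 538 (−0.41). The molting timer lin-42, a relative of the clock gene period, differed by −1.08 near the floor, and its other probe set by 0.69. A subunit of the enzyme that hydroxylates collagen prolines, phy-2, read 98.4, 79.3 and 92.8, against 159, 125 and 157 (−0.70). Of 34 cuticlins, the non-collagen proteins of the cuticle, 23 lay lower with a median of −0.10.

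Among defence genes, the invertebrate-type lysozyme ilys-3 stood out. It read 117, 129 and 149 with pristine particles, against 340, 320 and 342 in control, a 2.55-fold lower signal (−1.35 ± 0.16 SE, adjusted p = 0.0644). The spread within each group was small beside the gap between them. It passed in 6 of 22 alternative fits, among them the brightness filters, quantile normalisation and the deposited scaling. The lysozyme lys-7, an antibacterial enzyme of the intestine, read 711, 820 and 662, against 1042, 1138 and 1661 (−0.78, adjusted p = 0.31). For lys-5 the values were 139, 135 and 102 with particles and 216, 161 and 151 in control (−0.49). Of 16 lysozymes 11 lay lower and 5 higher (median −0.13), with 4 lower at an unadjusted p under 0.05 (25%, against 4.8% of all genes), 3 of the 16 at the floor on all 6 arrays and a median of −0.03 with a floor of 64.

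C-type lectins as a family did not lean, with 107 of 220 higher, 113 lower and a median of −0.01. Single lectins did differ. The intestinal lectin gene clec-60 read 265, 247 and 180 with particles, against 447, 370 and 418 (−0.85 ± 0.18, adjusted p = 0.227), and clec-61 read 321, 459 and 278, against 505, 660 and 642 (−0.79). Values for clec-174 were 264, 294 and 235 in exposed animals and 475, 394 and 404 in control (−0.68). The reverse was seen for clec-22, at 69.1, 48.7 and 62.4 with particles and 24.8, 40.7 and 37.5 in control (0.82). Among the 59 genes of the intestinal immune response, 8 were lower (13.6%, against 4.8% of all genes) and 3 higher (5.08%, against 4.25%) at an unadjusted p under 0.05, with a median of −0.03. In that list dod-3, a gene downstream of insulin signalling, read 10101, 12272 and 9829, against 13259, 15014 and 13442 (−0.38). The fungus-induced relative fipr-21 read 1989, 2049 and 1641, against 2747, 2626 and 2434 (−0.46). Saposin-like proteins, small membrane-active peptides of the gut, mostly lay lower (14 of 18, median −0.13, or 0.00 without control replicate 2), led by spp-24 at 519, 581 and 528, against 682, 878 and 761 (−0.51). One member went the other way, spp-11 at 192, 177 and 139 with particles and 119, 83.0 and 94.6 in control (0.78, adjusted p = 0.236).

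The antimicrobial peptides made by the epidermis lay higher more often than not, 12 of 18 with a median of 0.19. The caenacin gene cnc-5 read 50.9, 46.0 and 50.8 with particles and 25.1, 16 and 32.7 in control, where 1 array was at the floor (at least 2.08-fold higher). The peptide gene nlp-32 read 61.6, 64.5 and 46.7, against 24.6, 36.3 and 24.8 (1.02). Without pristine replicate 1 or control replicate 3 the median of these peptides was 0.10.

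Single digestive proteases of the gut differed in both directions. The cathepsin B relative cpr-2 read 917, 1405 and 927 with pristine particles, against 2262, 3704 and 4631, a 3.19-fold lower signal (−1.67 ± 0.33, adjusted p = 0.202). Its relative cpr-1 read 2859, 4603 and 2214, against 5177, 5540 and 6755 (−0.91), and cpr-9 read 3160, 4381 and 2782, against 4764, 5708 and 7519 (−0.80). All 3 kept the pristine arrays below the control arrays. Aspartyl proteases asp-7 and asp-8 lay the other way. The first read 293, 264 and 254, against 214, 151 and 114 (0.80), and the second 222, 217 and 188, against 128, 108 and 130 (0.78). Of all 26 aspartyl and cathepsin proteases, 20 lay lower with a median of −0.07, which was −0.15 when control replicate 1 was left out and −0.01 when control replicate 3 was. Intestine markers did not lean (9 of 19 higher, median −0.01, summed signal 84667 to 92361 on pristine arrays and 88321 to 98389 on control arrays).

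Neuropeptide genes of the flp and nlp classes lay lower with pristine particles in 59 of 73 cases, with a median of −0.21. At an unadjusted p under 0.05, 18 were lower (24.7%, against 4.8% of all genes) and 2 higher (2.74%), and for 21 the pristine arrays lay below all control arrays, which held for 6.18% of all genes. The gene nlp-21 read 1266, 1306 and 1281, against 1749, 2058 and 1766 in control (−0.53 ± 0.08, adjusted p = 0.103). For nlp-20 the values were 4283, 4610 and 4244 with particles and 8204, 7077 and 6454 in control, a 1.65-fold lower signal (−0.72, adjusted p = 0.131). In both, the pristine arrays agreed closely with one another. The FMRFamide-like flp-7 read 2614, 2862 and 2796, against 3413, 4248 and 3620 (−0.44), nlp-68 read 448, 508 and 539, against 634, 863 and 709 (−0.55), and nlp-15 read 2956, 3589 and 2974, against 4080, 4704 and 3755 (−0.40). The mean level of the list, less the control mean, was −0.28, −0.13 and −0.15 on pristine arrays and −0.09, 0.17 and −0.08 on control arrays. Without control replicate 2, the highest of these, the median was −0.11. Neuron markers were closer to even, with 12 of 31 higher, a median of −0.05, none at the floor on all 6 arrays, and a summed signal of 60429 to 69724 with particles against 66587 to 74055 in control. Their part in the neuropeptide result was not tested. The largest difference among the 2 markers with an unadjusted p under 0.05 was ida-1, which codes for a dense-core vesicle protein that neuropeptide release depends on, at 1967, 2242 and 1922, against 2435, 3334 and 2799 (−0.47, second probe set −0.50).

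Insulin-like peptides signal through the receptor DAF-2. Of 24 measured, 16 lay lower (median −0.04) and at an unadjusted p under 0.05 4 were lower (16.7%, against 4.8% of all genes) and 1 higher (4.17%, against 4.25%). The agonist ins-4 read 408, 488 and 460 with particles, against 649, 826 and 821 (1.69-fold lower, −0.75 ± 0.11, adjusted p = 0.0944). Smaller signals were found for ins-11, at 94.6, 151 and 117, against 194, 231 and 170 (−0.73), and for ins-5, at 376, 299 and 377, against 436, 680 and 422 (−0.52). In each of these 3 genes no pristine array reached a control array. The receptor gene daf-2 itself read 104, 115 and 102, against 187, 192 and 137 (−0.67, adjusted p = 0.378), but its other probe sets differed by −0.52, 0.63 and −0.05. The kinase gene age-1, which acts just below the receptor, lay slightly higher at 546, 580 and 542, against 468, 467 and 465 (0.25). The Wnt ligand lin-44 read 159, 180 and 159, against 260, 241 and 229 (−0.55 ± 0.08, adjusted p = 0.0996). The Wnt and Hox genes went both ways, 14 of 26 higher with a median of 0.00. The labial-type Hox gene ceh-13 read 564, 762 and 640, against 849, 968 and 956 (−0.51), and the beta-catenin bar-1 read 384, 416 and 375, against 344, 309 and 319 (0.27).

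Germline genes lay higher with pristine particles. Of 33 germ granule proteins and germline RNA regulators 27 were higher, with a median of 0.27, and 6 were higher and 0 lower at an unadjusted p under 0.05 (18.2% and 0.0%, against 4.25% and 4.8% of all genes; limma adjusted p called none). The P granule helicase glh-1, a Vasa relative, read 652, 489 and 519 with particles, against 411, 243 and 331 (0.77, adjusted p = 0.409, second probe set 0.87). Its relative glh-2 read 152, 125 and 159, against 99.9, 78.6 and 82.9 (0.73 ± 0.16, adjusted p = 0.256). Both kept the groups apart. The P granule scaffold pgl-1 read 524, 343 and 422, against 350, 187 and 222 (0.79), and the germline Argonaute wago-1 read 380, 287 and 283, against 284, 158 and 161 (0.70). In these 2 genes control replicate 1 reached the lowest pristine values. The germline cap-binding factor ife-5 lay near the floor in control, at 31.5, 19.9 and 21.5, where the pristine arrays read 68.1, 67.1 and 54 (2.64-fold higher, 1.40 ± 0.23, adjusted p = 0.131).

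Of 34 meiotic genes 28 lay higher (median 0.22), and the 2 higher at an unadjusted p under 0.05 were 5.88%, near the 4.25% of all genes. The median was 0.04 over the members above median brightness. The chromosome axis gene htp-3 read 107, 115 and 89.2, against 109, 18.3 and 21.6 in control (1.56, adjusted p = 0.50). Control replicate 1 matched the pristine arrays while the other control arrays were near the floor. The recombinase gene rad-51 read 555, 455 and 428, against 393, 378 and 397 (0.29). The nuclear envelope gene sun-1, which moves meiotic chromosomes, read 199, 162 and 169, against 132, 95.9 and 104 (0.68 ± 0.14, adjusted p = 0.211, second probe set 0.30).

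Of 27 oocyte and eggshell genes 21 lay higher (median 0.22), 3 of them at an unadjusted p under 0.05 (11.1%, against 4.25% of all genes). The eggshell proteoglycan gene cpg-2 read 288, 320 and 275 with particles, against 215, 144 and 162 (1.72-fold higher, 0.78 ± 0.15, adjusted p = 0.197), and its second probe set differed by 0.80. The related cpg-1 read 644, 551 and 535, against 469, 367 and 449 (0.43). The maternal RNA-binding gene spn-4 read 193, 175 and 198, against 168, 107 and 143 (0.46). DNA replication genes lay higher in 30 of 38 cases (median 0.19), with 8 higher (21.1%, against 4.25% of all genes) and 0 lower at an unadjusted p under 0.05. The primase gene pri-1 read 105, 112 and 130, against 64.5, 71.3 and 75.6 (1.64-fold higher, 0.71 ± 0.12, adjusted p = 0.164). The ribonucleotide reductase subunit rnr-1 read 246, 226 and 242, against 182, 168 and 195 (0.39), the helicase subunit mcm-5 read 590, 546 and 421, against 389, 388 and 380 (0.41), and the flap endonuclease crn-1 read 289, 283 and 302, against 227, 143 and 176 (0.71). No control array of these 4 replication genes reached a pristine one.

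The position of the single control arrays bears on all these germline lists. The mean level of the germ granule list, less the control mean, was 0.38, 0.28 and 0.29 on pristine arrays, against 0.24, −0.13 and −0.11 on control replicates 1, 2 and 3. For the oocyte list it was 0.30, 0.24 and 0.14, against 0.25, −0.22 and −0.03. Control replicate 1 thus lay with the pristine arrays in the oocyte list and just below them in the germ granule list. Leaving it out moved the germ granule median to 0.38 and the oocyte median to 0.33. Without pristine replicate 1 these medians were 0.21 and 0.14, and with a floor of 64 they were 0.12 and 0.09. Over members above median brightness the germ granule median was 0.15 and the oocyte median 0.25. Sperm genes showed no such lean: 16 of 32 spe-type genes were higher (median −0.02), and 21 of 23 major sperm protein genes lay lower with a median of −0.26, of which none reached an unadjusted p under 0.05. Their mean level was −0.03, −0.52 and −0.27 on pristine arrays, against −0.41, 0.00 and 0.41 on control arrays, so the groups overlapped, and the median was −0.05 without control replicate 3. Among spe-type genes spe-36, which codes for a sperm protein needed at fertilisation, read 30.8, 39.8 and 41.8, against 52.5, 66.5 and 81.9 (−0.83, adjusted p = 0.22).

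**Figure D2:**
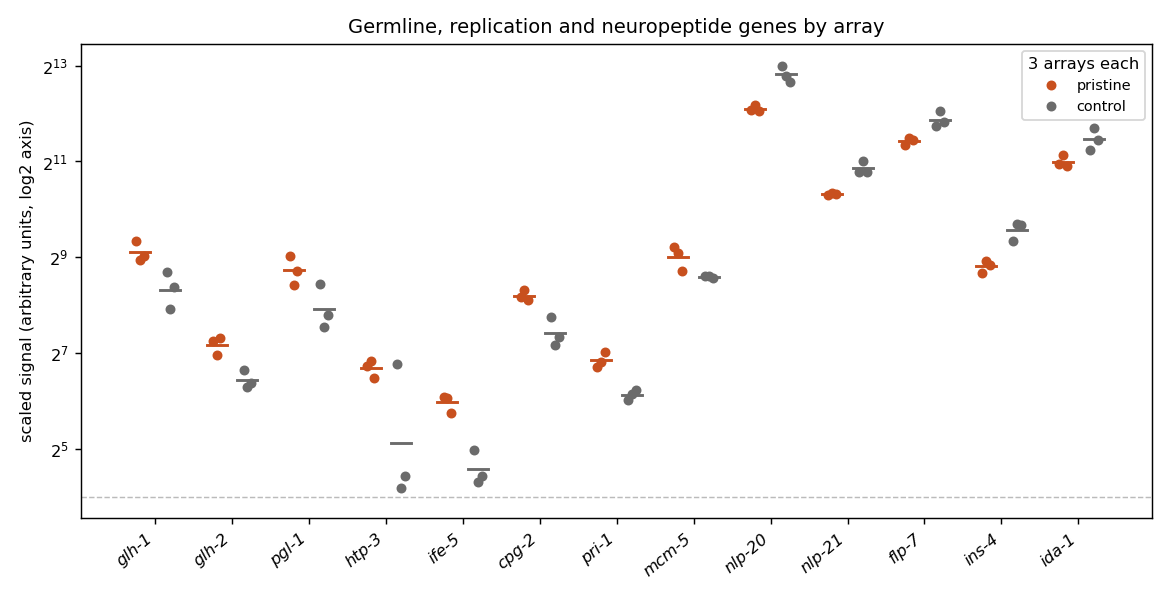
Scaled signal on a log2 axis for 8 germline and replication genes and 5 neuropeptide-related genes, with a dot for each of 3 pristine-particle arrays (orange, left) and 3 control arrays (grey, right) and a bar for the mean of the log2 values. The germline genes lie higher with particles on average. In htp-3 1 control array (109) lies among the pristine ones, and in pgl-1 1 control array lies above the lowest pristine one. The neuropeptide-related genes on the right lie lower.

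**Figure D3:**
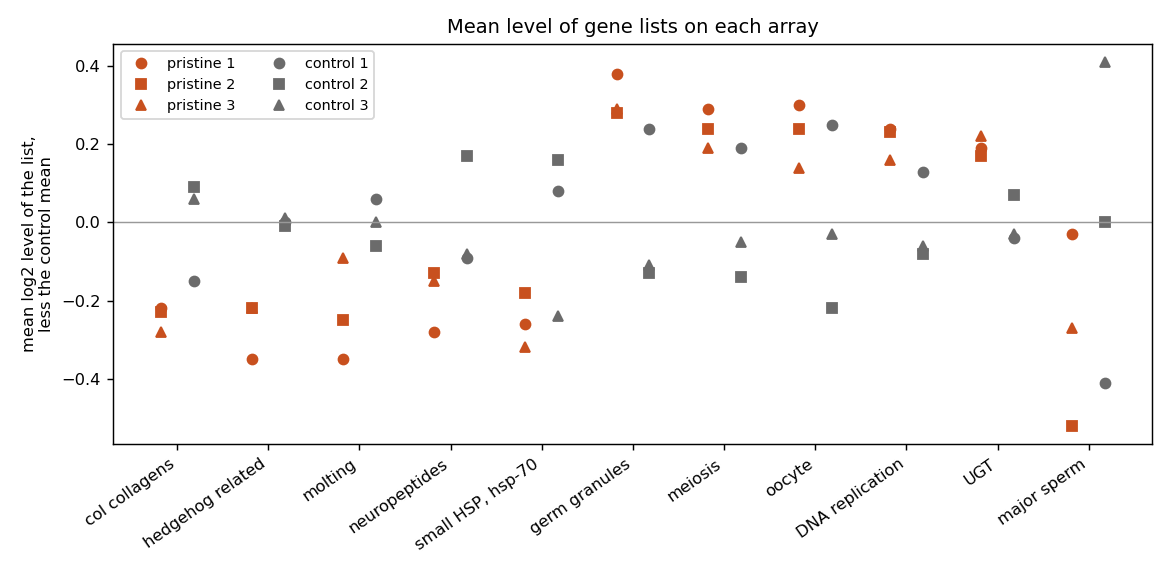
Mean log2 level of 11 gene lists on each pristine array (orange, left) and control array (grey, right), less the mean of the 3 control arrays, with 1 marker shape per replicate. Hedgehog-related genes separate the groups (−0.22 or below, against −0.01 to 0.01). Narrower gaps also part the groups in the col, molting, neuropeptide, germ granule, DNA replication and UGT lists. Control replicate 1 lies close to the pristine arrays in the germ granule, meiosis and oocyte lists.

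Metal-binding genes did not lie higher as a group. The metallothionein mtl-2 read 9422, 9371 and 9690 with pristine particles, against 9630, 11425 and 10655 in control (−0.15, 95% interval −0.46 to 0.16), and mtl-1 read 5418, 5205 and 5264, against 6436, 6653 and 5330 (−0.21, 95% interval −0.43 to 0.02). Metallothioneins bind zinc, cadmium and other soft metals, and for both genes a control array overlapped the pristine ones on the probe sets printed. Other probe sets of mtl-2 differed by −0.11 and −0.49, so all lay lower with pristine particles. The value of −0.49 (mean log2 12.61 with pristine particles, 13.09 in control) lies outside the interval given for the brightest mtl-2 probe set. Of the 10 metallothionein, cadmium-responsive and numr genes measured, 7 lay lower (median −0.11) and none had an unadjusted p under 0.05. The cadmium-responsive cdr-6 read 614, 694 and 658, against 738, 873 and 741 (−0.26), and cdr-4 read 201, 212 and 203, against 197, 186 and 157 (0.20). Zinc and copper handling genes lay higher in 17 of 23 cases (median 0.10). The zinc-sensing receptor gene hizr-1 read 209, 211 and 171, against 133, 175 and 133 (0.42), where 1 control array exceeded the lowest pristine one.

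Iron and heme genes differed in both directions, with 11 of 19 higher. The iron-storage ferritin ftn-1 read 5523, 6493 and 6562, against 8872, 7981 and 10228 (1.45-fold lower, −0.54 ± 0.14, adjusted p = 0.291). The heme transporter hrg-4 read 71.6, 51.8 and 63.3, against 36.3, 16 and 16.5, with 1 control array at the floor (at least 2.90-fold higher, adjusted p = 0.316). Another heme-responsive gene, hrg-11.2, read 313, 349 and 288, against 168, 153 and 250 (0.76). Of 14 genes of sulfide handling and the hypoxia response 11 lay lower, with a median of −0.17.

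Conjugating enzymes of the UDP-glucuronosyltransferase class lay higher with particles in 46 of 64 cases, with a median of 0.13. At an unadjusted p under 0.05, 12 were higher (18.8%, against 4.25% of all genes) and 2 lower (3.12%). The enzyme gene ugt-17 read 533, 496 and 519, against 278, 295 and 258 (1.86-fold higher, 0.90 ± 0.19, adjusted p = 0.227). The signal of ugt-62 was 416, 376 and 449 with particles and 277, 316 and 200 in control (0.67). The smallest p of the class belonged to a member on the other side, ugt-7, at 62.7, 66.0 and 62, against 138, 142 and 112 (2.05-fold lower, −1.03 ± 0.17, adjusted p = 0.132). With a floor of 64 the median of the class was 0.00, since many members are dim.

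Glutathione S-transferases were even, 23 higher and 22 lower of 45, with a median of 0.00. The SKN-1 target gst-4, a common reporter of oxidative stress, read 218, 231 and 251, against 149, 122 and 123 (1.78-fold higher, 0.83 ± 0.20, adjusted p = 0.284). The abundant gst-20 read 6887, 6676 and 7360, against 5049, 5912 and 5728 (0.33). In both the groups did not overlap, and gsto-3 lay the other way at 2220, 2447 and 2218, against 2644, 2676 and 2811 (−0.24). Cytochrome P450 genes were even as well (37 of 73 higher, median 0.01), with cyp-14A1 at 201, 244 and 278, against 158, 137 and 142 (0.72), and cyp-14A2 at 92.4, 85.9 and 84.5, against 46.7, 63.0 and 50.3 (0.73). ABC transporters lay higher in 38 of 53 cases (median 0.08, or 0.02 without control replicate 2). One of them was wht-2, at 660, 575 and 627, against 531, 402 and 451 (0.44). Of 17 superoxide dismutases, catalases and peroxidases 12 lay lower (median −0.09). The mitochondrial superoxide dismutase sod-3, a target of DAF-16, read 87.9, 95.7 and 90.4, against 131, 171 and 115 (−0.59).

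Genes of fatty acid metabolism and lipid binding lay higher in 55 of 87 cases (median 0.10, or 0.04 without control replicate 3 or pristine replicate 3), with 10 higher (11.5%, against 4.25% of all genes) and 3 lower (3.45%, against 4.8%) at an unadjusted p under 0.05. The palmitate desaturase fat-5 read 86.2, 133 and 73.4, against 36, 50.6 and 24.5 (2.66-fold higher, 1.41 ± 0.28, adjusted p = 0.211). The acyl-CoA dehydrogenase acdh-1, which opens a side route of propionate breakdown, read 296, 320 and 481, against 68.8, 197 and 136 (2.91-fold higher, adjusted p = 0.355). Control arrays of acdh-1 varied widely but stayed below the pristine ones. Lower were the lysosomal lipase lipl-2, at 1570, 1755 and 1546, against 2109, 2209 and 2439 (−0.47), and the desaturase fat-4, at 5688, 5116 and 5058, against 7009, 6949 and 6659 (−0.38).

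Heat shock genes did not lie higher as a group. Of 13 small heat shock and hsp-70 genes 11 lay lower, with a median of −0.28 (−0.45 without control replicate 3, −0.21 without pristine replicate 3). Their mean log2 level, less the control mean, was −0.26, −0.18 and −0.32 on pristine arrays. It was 0.08, 0.16 and −0.24 on control arrays, so the groups overlapped. The small heat shock gene hsp-16.2 read 1238, 1492 and 1279 with particles, against 2052, 2550 and 1921 (−0.70 ± 0.37, adjusted p = 0.678), and hsp-12.6 read 5207, 4899 and 5722, against 6824, 8786 and 5775 (−0.42). The other two lay higher, hsp-16.20 by 0.04 and sip-1, a small heat shock protein of germline and embryo, by 0.63. The gene sip-1 read 5766, 5575 and 6432, against 5631, 3282 and 3034. There again control replicate 1 lay beside the pristine arrays. Proteasome subunits lay higher in 28 of 33 cases but by little, with a median of 0.08 and 5 higher at an unadjusted p under 0.05 (15.2%, against 4.25% of all genes). Cytosolic ribosomal protein genes did not lean, 40 of 75 higher with a median of 0.01, and body wall muscle genes had a median of −0.02 over 25.

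**Figure D4:**
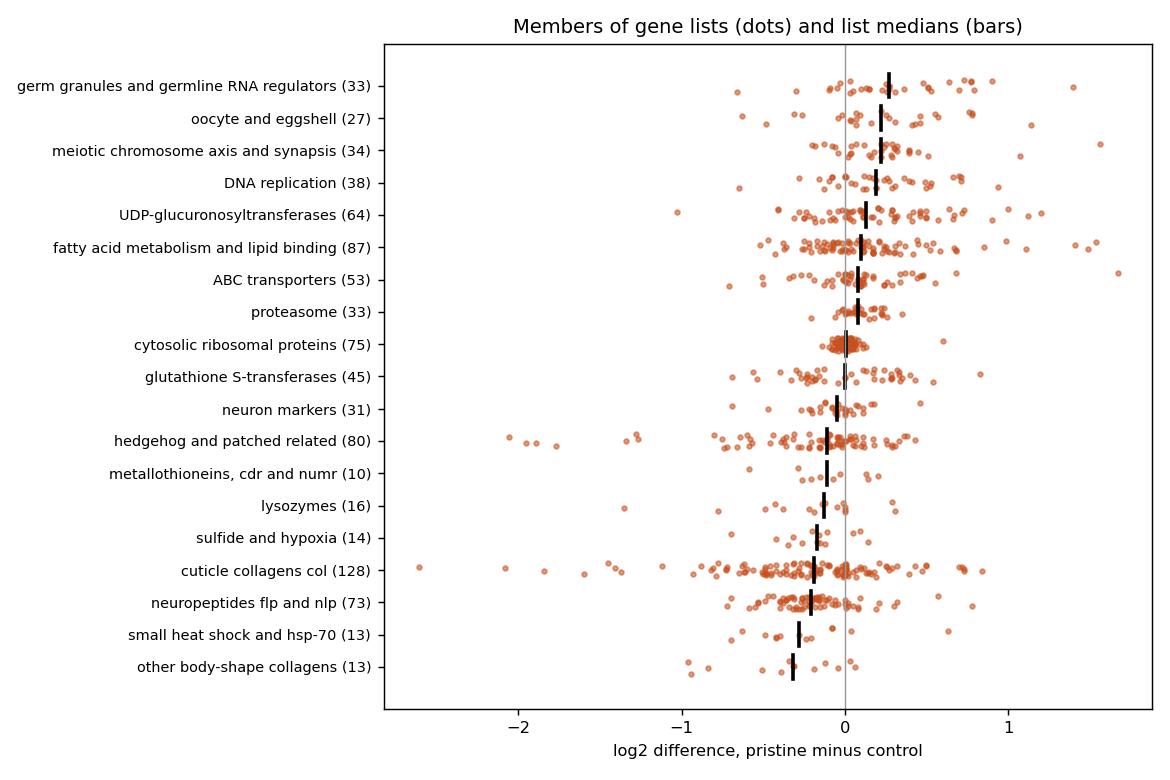
Log2 difference, pristine minus control, of each measured member (dots) of 19 gene lists, with the list median as a black bar and the number of members in brackets. Medians run between 0.27 for germ granule genes and −0.32 for body-shape collagens, and the left tails of the hedgehog-related and col lists reach −2.06 and −2.61.

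Outside the lists described so far, several genes had small p-values with widely separated arrays. The gene sst-20 read 64, 60.6 and 71.3 with particles and 16, 16 and 17.4 in control, at least 3.96-fold higher (adjusted p = 0.0652). The gene idpp-13, counted in the pharyngeal cuticle list of the last section, read 35.8, 31.1 and 44.4. It lay at the floor on all control arrays, at least 2.29-fold higher with particles (adjusted p = 0.0644). So did M01E5.1, at 41.1, 31.4 and 28.8 with particles (at least 2.08-fold higher, adjusted p = 0.0755). These 3 genes were dim, so their folds rest on the floor. Brighter genes were mfsd-13.2, a transporter-like gene, at 738, 737 and 741, against 493, 566 and 450 (0.56 ± 0.09, adjusted p = 0.131), and edg-1, at 292, 256 and 214, against 141, 87.6 and 113 (2.26-fold higher, adjusted p = 0.141). A bright gene with a wide gap between groups was H39E23.3, at 11241, 7228 and 12679, against 1975, 4706 and 2778 (3.42-fold higher, 1.77 ± 0.38, adjusted p = 0.227). The late-embryogenesis-abundant gene lea-1 read 3201, 3436 and 2908, against 2188, 1726 and 1302 (0.90), and of its 5 other probe sets 1 differed by 0.82 and the rest by −0.19 to 0.11.

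Lower outside the lists were ctdh-1, at 592, 630 and 575, against 949, 925 and 1000 (1.6-fold lower, −0.68 ± 0.08, adjusted p = 0.0652), and T28A11.16, at 5875, 5945 and 5338, against 9939, 12111 and 9530 (−0.87 ± 0.12, adjusted p = 0.0777). The gene C18H7.1 read 1186, 1486 and 1160, against 2319, 2625 and 2275 (1.89-fold lower, adjusted p = 0.0867). These 3 bright genes kept tight groups. Near the floor, H23N18.5 read 18.9, 16 and 16, against 90.1, 182 and 141 (at least 7.82-fold lower, adjusted p = 0.22), and C40H1.7 read 36.4, 19.2 and 16, against 79.2, 88.5 and 123 (at least 4.25-fold lower, adjusted p = 0.0936).

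Set directly against the aged-particle arrays, the pristine arrays differed at an adjusted p under 0.05 in 25 probe sets, 3 higher (0.0133%) and 22 lower (0.0976%). Cuticle genes made up much of the lower group. The collagen col-114 fell to 23.7, 19.9 and 20.3 with pristine particles, against 328, 497 and 539 with aged ones (20.9-fold, log2 difference −4.39 ± 0.30, adjusted p = 0.00173). Likewise col-158 fell to 116, 61.3 and 47.5, against 1231, 1615 and 1836 (22.1-fold, adjusted p = 0.00623). For both genes the control arrays lay between the exposures. Further lower were col-164, col-14, col-123, col-43, col-35, col-84 and col-45, together 9 of the 128 col genes, with the cuticlin cut-1, the molting gene bli-5 and the ground-like grl-23 and grl-19. Not all of these lay below control. The gene bli-5 was at the floor on all pristine and control arrays. For col-164 the pristine arrays were at the floor, against 16, 23.7 and 16 in control. Pristine and control arrays also overlapped for col-43, col-45 and cut-1. The gene grl-23 read 168, 189 and 108 with pristine particles, against 1020, 2302 and 2243 with aged ones (11.6-fold lower, adjusted p = 0.0496). Gut and defence genes among the calls were ilys-3, lower at 117, 129 and 149, against 252, 349 and 269, with clec-60 and fipr-21. Higher with pristine than with aged particles were sst-20, at 64, 60.6 and 71.3, against 16, 16 and 16.6 (at least 4.02-fold), and M01E5.1. Many of these calls sat at an adjusted p of 0.0496, just under the threshold, and leaving out single arrays gave between 5 and 24 calls.

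Against silver nitrate 1 probe set differed, 1 of 4 that measure pqn-41, at the floor on all pristine arrays, against 43.9, 37.6 and 35.2 with silver nitrate (0.00443% of probe sets, at least 2.42-fold lower, adjusted p = 0.043), while the brightest probe set of that gene differed by 0.64. Values of the cuticle genes are set side by side here without a test of likeness. The signal of grl-23 was 168, 189 and 108 with pristine particles and 23.7, 16 and 16 with silver nitrate (log2 difference 3.04, adjusted p = 0.165). For col-158 it was 116, 61.3 and 47.5, against the floor on all silver nitrate arrays (2.12, adjusted p = 0.18). The gene col-114 was near the floor in both, with 23.7, 16 and 17.7 for silver nitrate. The lysozyme ilys-3 read 117, 129 and 149 with pristine particles and 82.1, 94.3 and 116 with silver nitrate (0.44, adjusted p = 0.425). Against control, both the pristine and the silver nitrate arrays share the same 3 control arrays, and the col median was −0.19 with pristine particles, 0.34 with aged particles and −0.22 with silver nitrate, while the germ granule median was 0.27, 0.10 and 0.37.

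**Figure D5:**
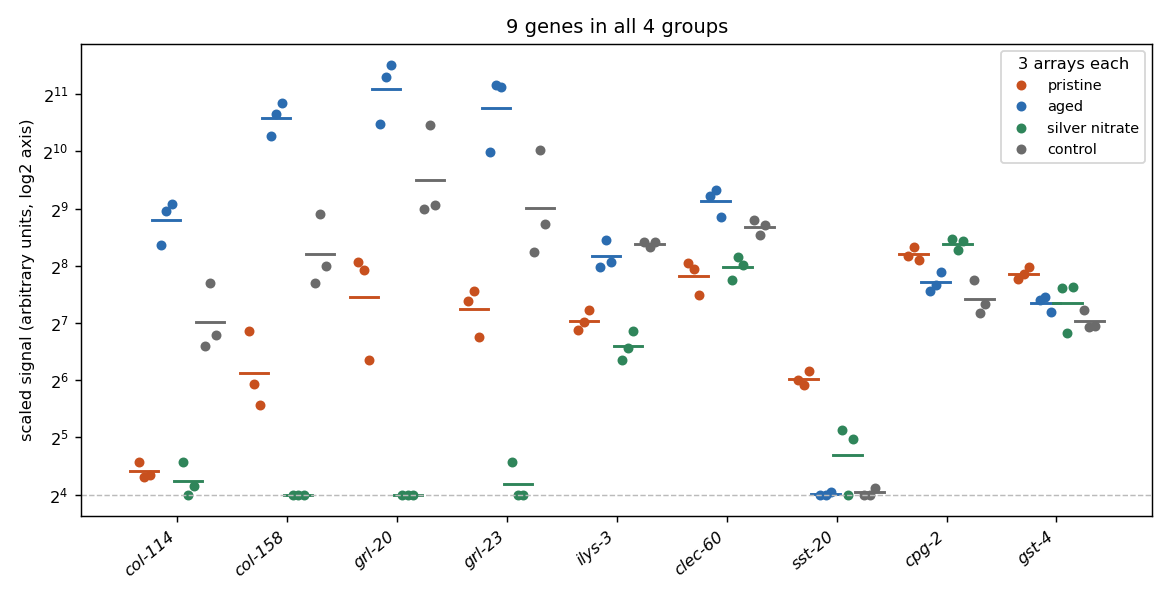
Scaled signal on a log2 axis for 9 genes in the pristine, aged, silver nitrate and control groups, 3 arrays each (dots), with the mean of the log2 values (bar) and the floor of 16 (dashed). For col-158, grl-20 and grl-23 the pristine arrays lie between silver nitrate, mostly at the floor, and control, with aged particles highest on average, and sst-20 is highest with pristine particles (60.6 to 71.3).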

How the data were processed

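Whole-animal RNA was hybridised to the Affymetrix C. elegans Genome Array after biotin labelling of 100 ng total RNA, per the labels' protocols. The deposited values were an intensity per probe set on a linear scale, and their trimmed mean of 500.1 to 500.2 on every array shows that they had been scaled by the authors. How probe pairs were summarised is not given in the sources used here. The number of arrays limits the precision.

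The arrays were brought to 1 median, floored at 16 and taken to log2. All 12 arrays entered 1 limma 3.58.1 model (R 4.3.3) of group means (residual degrees of freedom 8, prior 0.939), adjusted by Benjamini-Hochberg over 22548 probe sets; 77 array controls were left out. Arrays that all sit at the floor do not vary, and this makes the pooled spread smaller. The fit was tested on simulated data. Probe sets were named through the platform annotation and a RefSeq gene table: 20766 had 1 gene, 887 several and 895 none, and 2981 genes had more than 1 probe set, for which the brightest stood.

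Named were called probe sets, the 20 higher and 20 lower genes of smallest p whose arrays did not overlap, the 10 largest and lowest differences at an unadjusted p under 0.05, and list members (all of a list of up to 10, otherwise the 5 of smallest p); some genes so allowed are left out, and col-14, col-43, col-45, col-84, col-164, bli-5, cut-1, pqn-41 and the genes named for the probe sets above median brightness were named as calls. Members, lists and tests were chosen with earlier results of these data known. No label says that replicates were separate cultures, so p-values measure only the spread between these samples, which may be technical. Equal replicate numbers did not pair the arrays (correlations of −0.161, 0.0792 and −0.0261). Python 3.11.15 made the tables and figures. Alternatives are given in the closing section.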

Additional observations from a re-analysis of the deposited data

Results flagged for a closer look

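Named genes whose response to pristine particles differed from the response to another silver form were taken from the direct contrast between the exposures (limma, adjusted p under 0.05 over all probe sets). The values are log2 differences, pristine minus the other form. Against aged particles the collagens were lower, with −4.47 for col-158, −4.39 for col-114, −4.01 for col-45, −3.47 for col-35, −3.18 for col-164, −2.90 for col-84, −1.83 for col-123, −1.66 for col-14 and −1.23 for col-43. Of these, col-45 and col-164 lay at the floor on all pristine arrays, so their values are lower bounds in size, as is that of col-35 with 1 pristine array there. Other cuticle and epidermal genes were lower too, with −3.53 for grl-23, −3.33 for cut-1, −2.14 for grl-19 and −1.27 for bli-5, the last at the floor on all pristine arrays. These values are set against aged particles only. Pristine and control arrays overlapped for col-164 (−0.19 against control), col-45 (−0.73), col-43 (−0.33) and cut-1 (−0.67), and bli-5 was at the floor on both. The remaining collagens, grl-23 and grl-19 lay below all control arrays on every pristine array. Defence genes gave −1.31 for clec-60, −1.14 for ilys-3 and −0.95 for fipr-21. Genes without a stated role here gave −2.83 for C28H8.5, −2.23 for K01D12.10, −1.80 for R07E5.4, −1.33 for C02F4.4, −1.06 for C18H7.1 and −0.84 for D1044.1. Of these, R07E5.4 and C18H7.1 also lay below all control arrays (−0.79 and −0.92 against control). Pristine and control arrays overlapped for C28H8.5 (−0.44), K01D12.10 (−0.35), C02F4.4 (−0.23) and D1044.1 (−0.13). Higher with pristine particles were sst-20 (2.01) and M01E5.1 (1.06). Against silver nitrate 1 of the 4 probe sets of pqn-41 gave −1.27 with all pristine arrays at the floor, and the brightest of them gave 0.64. On the control arrays the probe set with −1.27 read 18.7, 21.6 and 16.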

How the results depend on the processing

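The number of probe sets called (limma, adjusted p under 0.05) was low and moved with most settings. Pristine particles against control gave 1 call, and the count was 6 with the deposited scaling, 18 after quantile normalisation, 2 with a floor of 1, 2 with a floor of 64, 3 without the dimmest 25%, 13 above median brightness, 5 with a trend and robust fit, and 0 with the 6 arrays compared, where 1781 had an unadjusted p under 0.05. Leaving out 1 array at a time gave 1 to 17 calls. Among control arrays the count was 17, 11 or 6 for replicate 1, 2 or 3 left out, among pristine arrays it was 8, 6 or 3 in the same order, and it was 2 for aged replicate 1 and 4 for silver nitrate replicate 2. All 12 of those fits kept the lem-4 call, which was lost with a floor of 1, in the trend and robust fit and with the 6 arrays compared (adjusted p = 0.495, 0.0533 and 0.147). Against aged particles the main 25 became 42 with the deposited scaling, 43 after quantile normalisation, 11 with a floor of 1, 48 without the dimmest 25%, 107 above median brightness, 95 with a trend and robust fit and 8 with the 6 arrays compared, and 5 to 24 when 1 array was left out, the lowest without control replicate 3 or pristine replicate 3. Against silver nitrate the 1 call became 0 after quantile normalisation, with a floor of 64, without the dimmest 25% and in the trend and robust fit (2205, 1707, 1674 and 2079 with an unadjusted p under 0.05), 3 with a floor of 1 and 80 above median brightness, and 0 to 13 when 1 array was left out. A test over the 16794 probe sets above the floor on all 6 pristine and control arrays was chosen after seeing the data and gave 3, 45 and 0 calls in the 3 comparisons (1704 with an unadjusted p under 0.05 in the last). The cause of these shifts was not tested. With the replicate number as a block (replicate block) the counts were 1, 14 and 0 (2275 with an unadjusted p under 0.05 in the last), and the numbers did not pair the arrays. The 138 genes followed through 22 alternatives kept their direction in every fit that gave a value, and 21 of them passed in at least 1. Many of these genes were named for a small p or for arrays that did not overlap in the same data. Their kept direction was therefore largely set by that choice and is no independent check. With a floor of 64, 7 probe sets had no value. Of 670 recomputed list medians, 613 moved by less than 1 SD between arrays and 57 by more. With a floor of 64 the medians were −0.04 for col genes, −0.01 for hedgehog-related genes, −0.03 for lysozymes, 0.00 for glucuronosyltransferases and 0.04 for fatty acid genes, and above median brightness they were −0.43 for molting and 0.04 for meiotic genes. Signal near the floor limits what can be seen of dim genes.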

Other observations

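Large gene families with no list-wide lean were the chemoreceptors (708 of 1324 higher, median 0.00), nuclear hormone receptors (146 of 258 higher, median 0.00) and F-box proteins (160 of 310 higher, median 0.00). Genes of the abu, pqn and idpp classes, grouped here as the pharyngeal cuticle list, were even in count, 35 of 74 higher. The 5 with an unadjusted p under 0.05, the idpp-13 described above among them, lay higher with pristine particles (6.76%, near the 4.25% of all genes). Among these, pqn-75 read 5691, 4266 and 3832 with particles, against 3600, 1708 and 2248 in control (0.92, adjusted p = 0.401), and pqn-89 read 1158, 990 and 1034, against 714, 689 and 673 (0.61, adjusted p = 0.282). The pharyngeal muscle myosin myo-1 read 8432, 7519 and 7692, against 7412, 5849 and 5485 (0.35), and the body wall myosin unc-54 read 4857, 5351 and 4092, against 6514, 5594 and 5526 (−0.31).

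By chromosome, X held 10.5% of the 727 placed genes that were higher at an unadjusted p under 0.05 and 16.9% of the 818 that were lower, where it holds 13.8% of the 17068 placed genes. Chromosome I held 17.5% of the higher and 10.1% of the lower ones, against 14.5% of all. These shares are descriptions with no test. The probe set with no single gene name that passed above median brightness read 378, 316 and 208 with pristine particles, against 70, 67.2 and 91.4 in control (1.95), and 111, 83.4 and 91 with aged particles.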
